A study of Drosophila melanogaster and Drosophila miranda with 8 samples.

Results

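The XL chromosome of *D. miranda*, named Muller-A in the deposited lists, is an ancient X arm that corresponds to the X-chromosome of *D. melanogaster*. CLAMP peaks on XL were taken as every peak that the lists place on Muller-A exactly, which leaves out the sequence Muller-AD (XR). There were 610 such peaks among 3577 in replicate 1 and 2049 among 12523 in replicate 2. The lists came from ChIP-seq with an antibody against CLAMP, in which crosslinked chromatin bound to the protein is recovered and sequenced. The samples were whole wild type female larvae of the third instar, kept at 18 °C, with 2 ChIP libraries and 2 input libraries of chromatin made without antibody. Whole larvae mix many tissues, so a peak is an average over cell types. Only positions, widths and 1 value per peak are in the lists, so read depth cannot be taken from them. According to the study's methods, the second replicate had more aligned ChIP reads and fewer aligned input reads than the first, and the part of this in the differences between the lists was not tested. The X of *D. melanogaster* is given beside XL where stated. It comes from 2 ChIP libraries with 2 inputs, of wild type female larvae at the same stage, kept at 21 °C. That Muller-A is XL rests on the naming of the sequences and could not be checked against genes here.

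CLAMP is a zinc finger protein that binds GA-rich DNA on all chromosomes. In *Drosophila* males it helps to bring the MSL complex, the dosage compensation machinery that raises transcription from the single X, to the X-chromosome. Females do not assemble this complex, so occupancy in female larvae was measured without it. XL and XR have been X-linked for far longer than neoX, which became X-linked recently, and chromosomes 2, 4 and 5 (Muller elements E, B and F) are autosomes.

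CLAMP peaks on XL ran from base 22841 to base 22025299 in replicate 1 and from base 297 to base 22116391 in replicate 2. The last of these bases was itself taken as the length of XL. In peak density, XL was not distinguishable from the autosomes or from the other X-chromosomes. In replicate 1, XL had 27.6 peaks per Mb (exact 95% Poisson interval 25.4 to 29.9) and chromosomes 2, 4 and 5 together had 25.4 (24.2 to 26.6). In replicate 2, XL had 92.6 peaks per Mb (88.7 to 96.7) and these autosomes had 89.1 (86.8 to 91.4). The density ratio of XL to autosomes was thus 1.09 in replicate 1 (95% interval 0.989 to 1.19) and 1.04 in replicate 2 (0.988 to 1.09). By an exact conditional binomial test, two-sided, with Benjamini-Hochberg adjustment over 9 density comparisons, the adjusted p was 0.364 and 0.384. Against XR, the ratio was 1.05 in replicate 1 (0.946 to 1.17) and 0.971 in replicate 2 (0.917 to 1.03). Against neoX, it was 1.02 (0.907 to 1.14) and 0.998 (0.937 to 1.06). These intervals cover counting error only. Peaks of 1 library are not independent replicates, and 2 libraries allow no exact permutation over samples below p = 0.5.

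**Figure D1:**
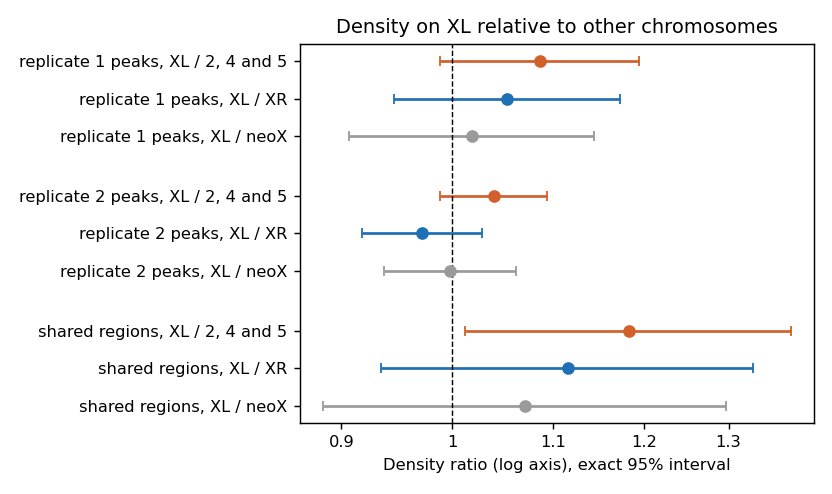
Density of CLAMP peaks on XL divided by the density on chromosomes 2, 4 and 5, on XR or on neoX (horizontal log axis), for each replicate and for regions shared by both; points are ratios and bars are exact 95% intervals that cover counting error only. The interval of shared regions against chromosomes 2, 4 and 5 starts at 1.01, and all others include 1.

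Merging peaks that overlapped between the replicates by 1 bp or more gave 235 shared regions on XL, of 1300 on all chromosomes. They occurred at 10.6 per Mb on XL, against 9.53 per Mb on XR and 9.92 per Mb on neoX. The ratio of these shared regions was 1.12 to XR (0.935 to 1.33, exact test, adjusted p = 0.484) and 1.07 to neoX (0.885 to 1.30, adjusted p = 0.612). Against chromosomes 2, 4 and 5 it was 1.18 (1.01 to 1.38), with an adjusted p of 0.295 over the same 9 exact tests.

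The XL peaks were wide regions, and their widths gathered at 1000 bp and just under 2000 bp. No peak was narrower than 1000 bp on XL or on the other *D. miranda* chromosomes. Exactly 1000 bp was the width of 181 XL peaks in replicate 1 (29.7%) and of 274 in replicate 2 (13.4%). On the other chromosomes, this share ran from 18.0% (chromosome 5) to 33.5% (neoX) in replicate 1. In replicate 2 it ran from 13.1% (XR) to 16.25% (chromosome 5), so this width was not particular to XL. Widths of 1801 to 2000 bp accounted for another 140 peaks in replicate 1 and 298 in replicate 2, whereas widths of 2001 to 2200 bp accounted for only 23 and 82. The median width on XL was 1336 bp in replicate 1 (quartiles 1000 and 1918) and 1444 bp in replicate 2 (1098 and 1889). The widest XL peaks reached 5238 bp and 7964 bp. Among the 6 chromosomes, XL had the highest median width in replicate 2, where the others ranged from 1356 bp on chromosome 4 to 1416 bp on XR. In replicate 1, where the others ranged from 1245 to 1553 bp, chromosome 5 was above it.

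Among the wide peaks of the replicate 2 list, the counted density on XL was above that on chromosomes 2, 4 and 5 together. It was not distinguishable there from XR or neoX. Among the widest 50% of each list, an alternative selection, the density ratio of XL to chromosomes 2, 4 and 5 was 1.15 in replicate 2 (1.07 to 1.23, exact conditional binomial test, adjusted p = 0.00127). With peaks of 2000 bp or more, a limit chosen after seeing the data, it was 1.29 (1.14 to 1.47, adjusted p = 0.00104, exact test), from 337 XL peaks. In replicate 1, the same selections gave 1.16 (1.02 to 1.32, adjusted p = 0.109) and 1.21 (0.927 to 1.58, adjusted p = 0.664, 82 XL peaks) by the exact test. Both replicates thus had ratios above 1 for wide peaks, but the test was passed in replicate 2 only, and the difference between the replicates was not tested. The adjustment was made over 9 comparisons within each selection and not over the selections tried. These tests cover counting error only, and peaks of 1 library are not independent replicates. Against XR, the ratio of peaks of 2000 bp or more was 1.14 in replicate 1 (0.840 to 1.54, adjusted p = 0.732) and 1.02 in replicate 2 (0.887 to 1.18, adjusted p = 0.838) by the exact test. Against neoX, it was 0.889 (0.649 to 1.22, adjusted p = 0.733) and 1.09 (0.928 to 1.28, adjusted p = 0.674) by the same exact test. Chromosome 5 alone had 17.5 such peaks per Mb in replicate 2, above the 15.2 of XL, from 31 peaks. Peaks of 2000 bp or more made up 13.4% of XL peaks in replicate 1 and 16.4% in replicate 2. On the other chromosomes they made up 10.4% (chromosome 4) to 24.6% (chromosome 5) in replicate 1. In replicate 2, XR had 15.6%, neoX 15.1%, and chromosomes 2, 4 and 5 had 13.4%, 12.6% and 19.4%.

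The value of a peak, taken to be log2 of the tag count of ChIP over that of input, was higher and more coarsely stepped in replicate 1. The XL median was 3.96 in replicate 1 (quartiles 3.17 and 4.55), a ratio of 15.6, and 1.87 in replicate 2 (1.57 and 2.24), a ratio of 3.66. The XL values ran from 0.93 to 5.77 in replicate 1 and from 0.50 to 4.69 in replicate 2. The 610 XL peaks of replicate 1 took only 123 distinct values, and 73 of them (12.0%) shared the value 4.28, so that ranks within this list are rough. The 2049 XL peaks of replicate 2 took 397 distinct values, with 122 peaks (5.95%) at 2.02. The XL medians lay near those of the other chromosomes, which ranged from 3.64 to 4.18 in replicate 1 and from 1.90 to 1.94 in replicate 2. XL had the lowest median of the 6 chromosomes in replicate 2 and was level with chromosomes 2 and 4 in replicate 1.

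On XL, the median value was higher in peaks of 1000 bp than in wider ones. Spearman's rho between width and value was -0.52 over the 610 peaks of replicate 1 and -0.29 over the 2049 peaks of replicate 2. XL peaks of exactly 1000 bp had a median value of 4.55 in replicate 1 and 2.24 in replicate 2, whereas those of 1500 to 1999 bp had medians of 3.18 and 1.70. Those of 2000 bp or more had medians of 3.58 and 1.87, so that value did not fall further in the widest class. The other *D. miranda* chromosomes had rho of -0.51 to -0.40 in replicate 1 and of -0.32 to -0.29 in replicate 2. On the *D. melanogaster* X, the same Muller element, rho was 0.58 over 1568 peaks in replicate 1 and -0.21 over 1569 in replicate 2. The sign of this relation therefore differed between the libraries of *D. melanogaster*, while both *D. miranda* libraries had the same sign on XL. The *D. melanogaster* larvae were kept at 21 °C, so species and temperature cannot be told apart. Width and value come from the same tags, and these correlations are descriptions across peaks of 1 library.

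**Figure D2:**
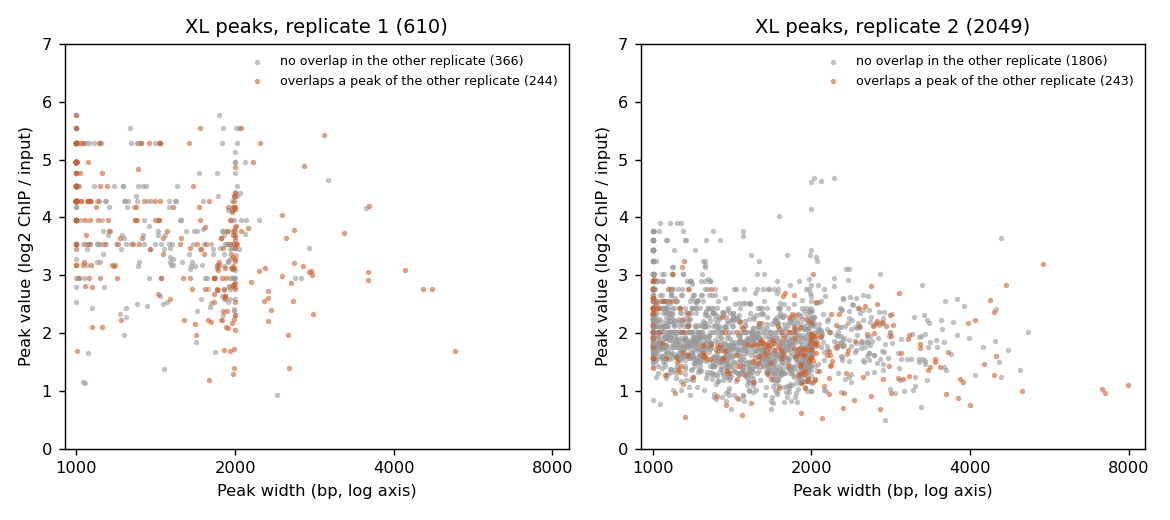
Width (horizontal log axis, bp) against value (vertical axis, log2 ratio of ChIP to input) of every XL peak in replicate 1 (left, 610 peaks) and replicate 2 (right, 2049 peaks). Orange points overlap a peak of the other replicate (244 and 243) and grey points do not; points gather at 1000 bp and just under 2000 bp, and the highest values of replicate 2 are all grey.

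Peaks of both replicates were found at the same XL positions in a minority of cases. Of the 610 XL peaks of replicate 1, 244 overlapped a peak of replicate 2 (40.0%, exact Clopper-Pearson 95% interval 36.1 to 44.0), beside 37.5% over all chromosomes. Of the 2049 XL peaks of replicate 2, 243 overlapped a peak of replicate 1 (11.9%, 10.5 to 13.3), beside 10.9% over all chromosomes. Both XL shares lie near those of the whole lists. The replicate 2 peaks cover 14.7% of XL and the replicate 1 peaks 4.13%, which sets how much of the chromosome each list could meet by position. A wide peak also meets more of the other list than a narrow peak does. Counting only peaks whose center fell inside a peak of the other list, a measure chosen after seeing the data that does not depend on a peak's own width, gave 30.3% (26.7 to 34.1) of the replicate 1 peaks and 7.61% (6.50 to 8.85) of the replicate 2 peaks. Over all chromosomes these shares were 26.4% and 6.84%. On XL, the centers of replicate 1 peaks thus fell inside replicate 2 peaks 2.06 times as often as the covered length, and those of replicate 2 inside replicate 1 peaks 1.84 times as often. On the other chromosomes these ratios ran from 1.76 (chromosome 2) to 2.64 (chromosome 5) and from 1.70 (XR) to 2.52 (chromosome 5), and the differences were not tested.

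The overlapping peaks formed 252 pairs on XL, and 220 of the 235 shared regions held a single peak of each list. Pairs overlapped by a median of 1014 bp (quartiles 709 and 1531), and 43 pairs overlapped by less than 500 bp. The centers of a pair were a median of 552 bp apart (279 and 951), and 49 pairs had centers within 200 bp. These 49 are 8.03% of the replicate 1 XL peaks and 2.39% of those of replicate 2, beside 7.49% and 2.14% over all chromosomes. With an overlap of at least 50% of both peaks, 130 XL regions were shared, or 21.3% and 6.34% of the XL peaks, beside 19.6% and 5.6% over all chromosomes. Shared regions were spaced by a median of 51445 bp along XL, with a largest gap of 720870 bp.

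XL peaks seen in both replicates had a higher median width and a lower median value than the rest. In replicate 1, the 244 overlapped XL peaks had a median width of 1652 bp and a median value of 3.64, and the 366 others had 1233 bp and 4.18. In replicate 2, the 243 overlapped XL peaks had a median width of 1863 bp and a median value of 1.72, and the 1806 others had 1395 bp and 1.88. The difference in median value, overlapped minus other, was -0.54 and -0.16 on the log2 scale. The exact 95% intervals of the medians were 3.48 to 3.78 and 3.96 to 4.28 in replicate 1, and 1.64 to 1.80 and 1.85 to 1.92 in replicate 2, so they did not overlap in either. They also stayed apart with an overlap of 50% of both peaks and with the center inside a peak. With centers within 200 bp they overlapped, at 3.13 to 4.18 and 3.77 to 4.13 in replicate 1 and 1.57 to 1.96 and 1.85 to 1.90 in replicate 2. Each of the other 5 chromosomes gave differences of the same sign in both replicates, so this order was not seen on XL alone.

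In both lists, wider XL peaks were overlapped more often. In replicate 1, the overlapped share was 28.2% at exactly 1000 bp (21.8 to 35.3), 37.3% from 1001 to 1499 bp (30.0 to 45.2), 43.6% from 1500 to 1999 bp (36.3 to 51.2) and 63.4% at 2000 bp or more (52.0 to 73.8, 82 peaks). In replicate 2, the shares of the same classes were 5.47% (3.10 to 8.87), 7.66% (5.94 to 9.70), 11.4% (8.97 to 14.1) and 28.2% (23.4 to 33.3, 337 peaks). The share of peaks with their center inside a peak of the other list was also higher in the wider classes, from 40 of 181 to 41 of 82 in replicate 1 and from 3.65% to 19.9% in replicate 2. For peaks of 2000 bp or more, the other chromosomes had overlapped shares of 60.3% to 69.4% in replicate 1 and of 21.3% to 48.4% in replicate 2. The XL shares of 63.4% and 28.2% lie within these ranges.

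By value, the overlapped share was higher in the lowest class than in the highest. With the XL peaks in 5 classes of rising value, ties kept together, the lowest class of replicate 1 was overlapped in 55.1% (46.0 to 63.9, 127 peaks) and the highest in 31.0% (19.5 to 44.5, 58 peaks). In replicate 2, these shares were 18.4% (14.8 to 22.4, 419 peaks) and 9.02% (6.36 to 12.3, 388 peaks). Among XL peaks of 2000 bp or more in replicate 1, those with a value at or below the XL median were overlapped in 41 of 55 cases (74.5%, 61.0 to 85.3) and those above it in 11 of 27 (40.7%, 22.4 to 61.2). In replicate 2, the corresponding shares were 34.1% of 170 peaks (27.0 to 41.8) and 22.2% of 167 (16.1 to 29.2). Peaks of 2000 bp or more above their own chromosome's median value were overlapped in 28.6% (chromosome 5, 7 peaks) to 61.8% (chromosome 4) elsewhere in replicate 1. In replicate 2 these shares ran from 14.3% (chromosome 2) to 38.5% (chromosome 5). On chromosome 4 in replicate 1, the share was not below the 60.3% of all its peaks of that width. The narrower XL classes differed by less. In replicate 1, the shares at or below and above the median were 32.0% and 27.6% at 1000 bp, 38.4% and 35.8% from 1001 to 1499 bp, and 44.7% and 37.9% from 1500 to 1999 bp. In replicate 2, they were 6.78% and 5.12%, 9.69% and 5.81%, and 12.4% and 9.22%. The 95% intervals of the paired shares overlap in every width class, but only from 61.0% to 61.2% at 2000 bp or more in replicate 1. Overlap of separate intervals does not measure the difference itself, which was not tested.

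**Figure D3:**
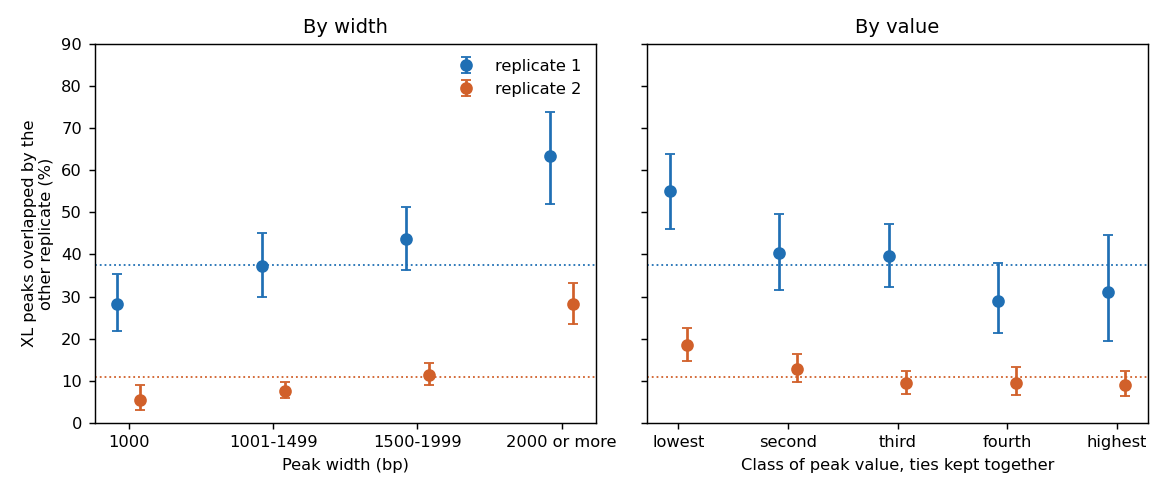
Share of XL peaks overlapped by a peak of the other replicate (vertical axis, percent) by peak width (left) and by class of peak value (right, 58 to 177 peaks a class in replicate 1 and 328 to 490 in replicate 2), in replicate 1 (blue) and replicate 2 (orange); bars are exact 95% intervals and dotted lines the share over all *D. miranda* peaks (37.5% and 10.9%). The share is higher in wider peaks, at 63.4% and 28.2% at 2000 bp or more, and is highest in the lowest class of value.

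The same contrast was seen at the ends of the lists, in sets chosen after the values were seen. Of the 50 widest XL peaks of each list, 37 in replicate 1 (74.0%, 59.7 to 85.4) and 24 in replicate 2 (48.0%, 33.7 to 62.6) were overlapped. Of the 50 XL peaks with the highest value, 15 in replicate 1 (30.0%, 17.9 to 44.6) were overlapped and none of 50 in replicate 2 (0%, upper exact limit 7.11%). In replicate 1, 42 XL peaks tied at the limit of 5.28, and the set was filled from them by lowest position. Over all *D. miranda* peaks, 37.5% and 10.9% were overlapped, and such sets were not formed on other chromosomes. Replicate 2 peaks of exactly 1000 bp were overlapped in 5.47% on XL and in 5.26% to 8.35% on the other chromosomes. The 50 highest XL peaks of replicate 2 had a median width of 1031 bp and a median value of 3.61, although the 3 highest were 2026 to 2206 bp wide.

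Of the 6 named XL peaks of highest value, 1 was overlapped by a peak of the other list. Over all *D. miranda* peaks, 37.5% of those of replicate 1 and 10.9% of those of replicate 2 were overlapped. A count from 6 peaks cannot be told apart from these shares. In replicate 1, 3 XL peaks tied at the highest value, 5.77. They lay on XL from 7946806 to 7947805, from 9154035 to 9155902 and from 14196174 to 14197173 of the *D. miranda* assembly used by the authors. The first was overlapped by a replicate 2 peak of 2255 bp with a value of 2.33, and the others by none. In replicate 2, the highest XL value was 4.69, which was also the highest of the whole list. It was reached from 1001195 to 1003400 and from 1598810 to 1600835, followed by 4.63 from 4638273 to 4640358. These 3 peaks were 2206, 2026 and 2086 bp wide, and no peak of replicate 1 overlapped them. Genes at these positions are not named, since an annotation of the assembly was not used.

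The widest XL peaks named here were found in both lists. In replicate 2, the widest spanned 7964 bp, from 3514302 to 3522265, at a value of 1.11. Replicate 1 had a pair of peaks there, from 3514451 to 3517245 at 3.01 and from 3518392 to 3523118 at 2.76, the latter being its second widest peak on XL. The widest XL peak of replicate 1 ran over 5238 bp from 5109076 to 5114313 at 1.69 and lay entirely inside a replicate 2 peak from 5107297 to 5114405 with a value of 1.04. The second widest of replicate 2, from 1589208 to 1596422, had a value of 0.96. Replicate 1 peaks overlapped it from 1590134 to 1594675 at 2.76 and from 1594786 to 1597738 at 5.42. The latter value is among the highest of replicate 1 on XL, at a place where the overlapping replicate 2 peak ranked 2004 of 2049 by value. One of the top-valued replicate 2 peaks, at 1598810, began 2387 bp beyond the end of this wide peak. The 4 named widest peaks were all overlapped, but those at 3514302 and 3518392 overlap each other. A wide peak also meets more of the other list by its width alone. Of the 20 widest XL peaks, a set chosen after the values were seen, 15 were overlapped in replicate 1 and 11 in replicate 2. Over all *D. miranda* peaks, 37.5% and 10.9% were overlapped.

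Where peaks overlapped, their values were weakly related between replicates. Over the 252 XL pairs, Pearson's r was 0.31 and Spearman's rho 0.31, with a median value of 3.63 in replicate 1 and 1.70 in replicate 2. The replicate 1 value was the higher in 247 of 252 pairs. Over the 49 pairs with centers within 200 bp, r was 0.34. The widths of pairs had r of 0.41 and rho of 0.19, which rose to 0.76 and 0.57 with an overlap of at least 50% of both peaks, a condition that itself ties the widths together. Both peaks were 2000 bp or wider in 33 pairs.

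**Figure D4:**
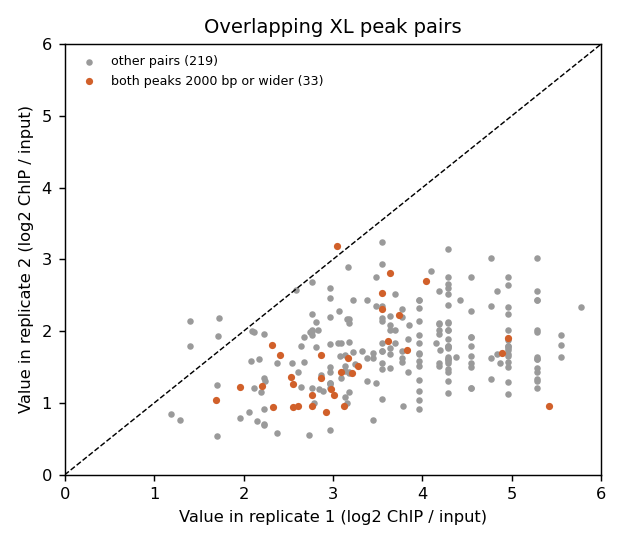
Value of overlapping XL peak pairs in replicate 1 (horizontal axis) and replicate 2 (vertical axis), both as log2 of ChIP over input, with the line of equal values dashed. Orange points are the 33 pairs in which both peaks were 2000 bp or wider; 247 of 252 pairs lie below the line.

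The 6 shared XL regions ranked best by value in both lists had values of 4.96 to 5.77 in replicate 1 and 2.33 to 3.02 in replicate 2. The best-ranked region ran from 20416433 to 20419485. Its replicate 1 peak had a value of 5.28 and a width of 1327 bp, its replicate 2 peak had 3.02 and 2016 bp, and their centers were 1382 bp apart. The next, from 15467043 to 15470876, had values of 5.28 and 2.55 and held 2 peaks of replicate 2. The region from 7946716 to 7948970 joined the value of 5.77 in replicate 1 with 2.33 in replicate 2. The regions from 9816113 to 9817793 and from 16607004 to 16609454 both had 5.28 and 2.44, with centers 299 and 121 bp apart. The last of these 6, from 20754695 to 20756492, had 4.96 and 2.76. Only the region at 16607004 had centers within 200 bp, and 1 of the 6 remained shared when 50% of both peaks had to overlap.

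The XL sites at which the peak centers coincided most closely had middle to low values. In the order given below, they ranked 351, 603 and 466 of 610 by value in replicate 1. In replicate 2 they ranked 717, 1179 and 1682 of 2049. From 12364052 to 12366223, the centers were 1 bp apart, with values of 3.64 and 2.02 and widths of 1880 and 2172 bp in replicates 1 and 2. From 15740776 to 15742827, they were 2 bp apart, with 1.40 and 1.79 and widths of 1988 and 2052 bp. This site is among the few where replicate 2 had the higher value. From 940327 to 942501, the centers were 3.5 bp apart, with 3.13 and 1.45 and widths of 1844 and 2175 bp.

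Along XL, peaks were spread evenly at the scale of 1 Mb, and neither list had a single dense block. In 22 full windows of 1 Mb, replicate 1 had from 22 to 36 peaks (median 27) and replicate 2 from 73 to 110 (median 94). The variance of the window counts was 0.521 times their mean in replicate 1 and 0.943 times in replicate 2. The window with most replicate 1 peaks, from 4000001 to 5000000, held 36, and with 19 shared regions also had the most of these, but its 89 replicate 2 peaks were below the median. The window with most replicate 2 peaks, from 16000001 to 17000000, held 110, while its 22 replicate 1 peaks were, with those of another window, the lowest count of that list. Across windows, the counts of the lists had a Pearson's r of -0.06 and a Spearman's rho of -0.09. Pearson's r was 0.19 over 44 windows of 0.5 Mb and 0.54 over 11 windows of 2 Mb. Shared regions per 1 Mb window ran from 7 to 19, with a median of 10.

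**Figure D5:**
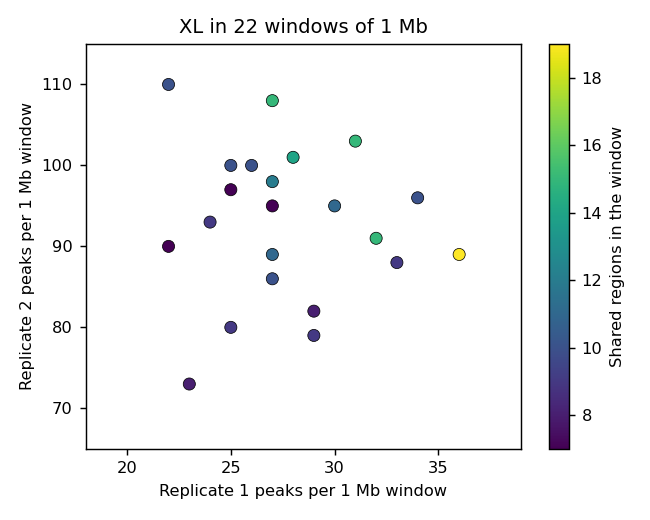
Peaks per window of 1 Mb on XL in replicate 1 (horizontal axis) and replicate 2 (vertical axis), for the 22 full windows; color gives the number of shared regions in the window, from 7 to 19. The windows show no common order between replicates, and the one with 36 replicate 1 peaks has the most shared regions.

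Neighboring XL peaks were separated by a median of 21557 bp in replicate 1 (quartiles 8409 and 44892) and of 6178 bp in replicate 2 (2541 and 12700). On XL, the SD of the gaps was 1.16 times their mean in replicate 1, above the range of the other chromosomes (0.891 to 1.10). In replicate 2 it was 1.03 times, below their range (1.09 to 1.12). The gaps on XL were thus the most uneven of the 6 chromosomes in 1 list and the least uneven in the other. Gaps under 1000 bp made up 3.45% of the XL gaps in replicate 1 and 11.6% in replicate 2. The largest gap of replicate 1, 283059 bp from 5515013 to 5798071, was reached by 23 peaks of replicate 2, with values of 1.35 to 3.90 (median 1.88). The largest gap of replicate 2, 97359 bp from 19591136 to 19688494, held 1 replicate 1 peak, of 1000 bp and with a value of 5.28. For scale, XL as a whole had 27.6 peaks per Mb in replicate 1 and 92.6 in replicate 2.

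The *D. melanogaster* X, which shares its Muller element with XL, had lists of like length in both replicates. It held 1568 and 1569 peaks, or 69.9 and 70.0 per Mb, between the XL densities of 27.6 and 92.6. Median widths there were 1299 and 1586 bp, beside 1336 and 1444 bp on XL. Median values were 3.12 and 2.27, beside 3.96 and 1.87 on XL. The XL lists thus lay on either side of both *D. melanogaster* lists in density and in median value.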

How the data were processed

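Peak lists of 2 *D. miranda* CLAMP ChIP libraries were analysed, each on its own, and the X of the *D. melanogaster* lists was used beside them. According to the methods of the study, the authors kept unique alignments, removed positions with anomalous tag counts and called peaks on each replicate with the default settings of SPP. They then based their analysis on peaks that overlapped between the replicates, so the single lists described here are not the set they analysed. Bowtie is named in the submitters' processing notes. These name dm3 for all samples, while the *D. miranda* sequences are named by Muller element, so the assembly name is not given in the sources used here, nor are tool versions. The deposited value has no name and was taken to be on the log2 scale, ChIP over input, because 164 of 300 and 412 of 929 distinct values in the replicates had a partner exactly 1 apart. The authors had scaled tag counts by library size. The last base of any peak in either list served as the chromosome length, since a genome was not used. Positions are 1-based.

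Computations used Python 3.11.15, numpy 2.4.6, pandas 2.3.3 and scipy 1.17.1, were tested on simulated lists, and used an adjusted p threshold of 0.05. Intervals are exact at 95% and cover counting error only. The regions named are the 6 best shared XL regions by mean rank of value, the 3 with the closest centers, and in each replicate the 3 highest and 2 widest peaks, the fullest 1 Mb window and the largest gap. Members, rules and tests were chosen with earlier results of these data known. Alternatives changed the overlap, list length, chromosome length, autosomes and selection by value or width.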

Additional observations from a re-analysis of the deposited data

How the results depend on the processing

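Of 21 alternative density ratios of XL, from 0.971 to 1.32, 18 were above 1 and 2 passed the adjusted threshold, both for wide peaks of replicate 2: 1.15 with the widest 50% and 1.29 with peaks of 2000 bp or more. The adjustment was made within each alternative and not over all of them. In replicate 2, the ratio fell below 1 with the highest 50% of peaks by value (0.981), against XR (0.971) and against neoX (0.998). Leaving out a replicate leaves no shared regions, so the main ratios of the single lists, 1.04 and 1.09, stood in there. These and the ratios against XR and neoX repeat main values and are counted among the 21. The overlapped share of XL peaks, 40.0% and 11.9% in replicates 1 and 2, moved to 21.3% and 6.34% with a reciprocal overlap of 50%, to 8.03% and 2.39% with centers within 200 bp, to 8.03% and 8.78% with the replicate 2 list shortened to the length of replicate 1, and to 30.3% and 7.61% with the center inside a peak. The overlap and center conditions are stricter by construction. The shortened list kept the replicate 2 peaks of highest value, and 8.78% is a share of its 558 XL peaks. Among all replicate 2 XL peaks, 9.02% were overlapped in the highest class of value and 18.4% in the lowest. The part of this selection in the lower shares was not tested. Without peaks of 1000 bp, median widths were 1745 and 1552 bp and median values 3.55 and 1.82. Within peaks of 2000 bp or more, the difference in median value between overlapped and other peaks was -1.13 in replicate 1 and -0.25 in replicate 2. The correlation of counts was 0.19 with windows of 0.5 Mb and 0.54 with windows of 2 Mb, and the cause was not tested. Of the 6 best-ranked regions, 1 was left with a reciprocal overlap of 50% and 1 with centers within 200 bp. The 2000 bp limit and the center measure were chosen after seeing the data. No paired analysis was possible because no 2 groups of samples were compared; each library gives XL and the autosomes itself (ratios of 1.09 and 1.04). Depth is not in the lists.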
